A study of Rattus norvegicus with 12 samples.

Results

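The collagen chain genes are the genes that encode the alpha chains of the collagens. They were taken as every gene whose name in the scanner files is Col, a type number, the letter a and a chain number. The rule found 44 genes, read by 81 probes on 174 spots, among 25671 gene names on the array. Of these, 58 probes of 36 genes passed the filter on dim probes, which asks for a signal well above background on 4 or more of 12 arrays, and entered the tests, among 27194 probes of 16396 genes. The genes that did not pass this filter were Col4a4, Col4a5, Col6a4, Col9a1, Col10a1, Col14a1, Col23a1 and Col28a1.

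A collagen molecule is a rod of 3 alpha chains wound around each other, and each chain repeats glycine at regular steps because only glycine has room at the centre of the rod. Fibrillar collagens pack into the fibres that carry the mineral of bone, where type I, built from the Col1a1 and Col1a2 chains, makes up most of the organic matrix. FACIT collagens sit on the surface of these fibres, type IV builds the sheets of basement membranes, type VIII forms hexagonal networks, and type VI forms beaded filaments around cells.

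The samples are skull vault bone of rats aged 10 weeks, taken 24 h after the operation, with 4 samples in each of 3 groups and 1 Cy3 array per sample. Bur samples came from bone in which a defect of 8 by 3 mm had been drilled at a feed of about 0.75 mm/s. Laser samples came from bone cut to that size with 3 strokes of an Er:YAG laser at 20 Hz, 127 mJ per pulse and about 2 mm/s. Controls had the periosteum stripped and the bone left whole, so they too were wounded, and the labels give no strain, sex or animal for any sample.

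Slide 1 held the bur and the control arrays, each in a column of their own, and slide 2 held the laser arrays, so that slide and treatment cannot be told apart in either laser comparison. Laser arrays were brighter before normalisation, with 67.5% to 72.0% of spots well above background against 57.0% to 59.9% on bur and 57.2% to 64.4% on control arrays. All 8 osteoblast markers were kept. Neural markers, of which 5 of 7 were kept, summed to 13.5 and 12.6 log2 signal on control arrays 1 and 4 against 7.20 to 10.1 on the other 10 arrays. Of 8 chondrocyte markers, the cartilage genes Acan, Matn1, Matn3, Hapln1 and Cnmd were not kept, while Sox9, Comp and Snorc were. Tendon markers, of which Scx and Mkx were kept and Tnmd was not, summed to 9.98 to 10.2 on laser arrays, 6.95 to 7.41 on bur and 5.56 to 6.84 on control arrays. With the bur, 1 of these 2 genes was called higher and 1 lower. Laser bone had 2 called higher against control, and 1 higher and 1 not called against bur bone. Of all genes, 12.4% were called higher and 9.11% lower with the bur, and 17.5% and 15.5% with the laser. In laser against bur the shares were 11.5% and 13.6%. Whether these markers had a part in the results below was not tested. The tissue was measured in bulk, so more cells of a type and more RNA per cell cannot be told apart.

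The probes are 60 bases long, and 7 of the 81 lie in the repeat itself, where, in 1 reading frame, at least 80% of the codons at steps of 3 encode glycine. The 3 of them that were kept are printed 5′ to 3′ with the glycine codons of the repeat in capitals, to show what a collagen transcript looks like to the array.
Col11a2, probe A_44_P1115707: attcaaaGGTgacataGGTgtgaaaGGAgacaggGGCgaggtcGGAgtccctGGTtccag
Col22a1, probe A_44_P1155570: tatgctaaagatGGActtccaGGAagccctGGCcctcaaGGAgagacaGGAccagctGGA
Col4a6, probe A_64_P390391: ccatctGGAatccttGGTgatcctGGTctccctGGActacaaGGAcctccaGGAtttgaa
Each holds 6 such glycine codons. In the rn4 build of the file headers the Col11a2 probe spans chr20:4936632-4936946, which is 315 bases of genome for 60 bases of probe, so it crosses a gap in the genome; the strand is minus. The Col22a1 probe lies at chr7:109510107-109510166 on the minus strand and the Col4a6 probe at chrX:37482127-37482186 on the plus strand. Of the 81 probes, 9 cross such a gap.

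A pair of fibrillar probes is shown as an example, at the offset with the highest share of identical bases. Other pairs were not compared. The Col3a1 and Col2a1 probes can be set against each other over 34 bases, of which 20 are identical, 58.8%, and are in capitals.
Col3a1, probe A_44_P146518: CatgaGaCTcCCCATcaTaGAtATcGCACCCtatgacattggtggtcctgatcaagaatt
Col2a1, probe A_64_P000967: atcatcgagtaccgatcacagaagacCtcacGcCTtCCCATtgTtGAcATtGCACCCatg
The longest identical run is 6 bases. The Col3a1 probe lies at chr9:44317465-44317524 on the plus strand and the Col2a1 probe at chr7:136679416-136679475 on the minus strand of rn4.

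In bur-drilled against control bone, 8 of the 36 kept genes rose and 2 fell. The call is a limma adjusted p under 0.05 over all 27194 kept probes, each gene being read by its brightest kept probe. Over all 16396 genes, 21.5% were called, 12.4% as higher and 9.11% as lower. Col3a1, the Col6a1, Col6a2 and Col6a3 chains, Col12a1, Col15a1, Col18a1 and Col4a1 were the genes that rose, by 1.57-fold to 3.81-fold. Col4a3 and Col19a1 fell. The median log2 fold change was 0.47 over the 36 genes and 0.07 over all genes. All 4 bur values lay above all 4 control values for 5 collagen genes and below them for 1, against 13.2% and 9.84% of all genes.

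In laser-ablated against control bone, 13 of the 36 genes rose and 4 fell, where 33.0% of all genes were called, 17.5% as higher and 15.5% as lower. Among the 13, which rose by 1.72-fold to 5.24-fold, were 6 fibrillar genes, Col8a1 and the 3 main type VI chains. Those that fell were Col9a2, Col4a3, Col6a5 and Col19a1. The median was 0.77 over the collagen genes and 0.01 over all genes. Laser values lay wholly above control values for 10 collagen genes and wholly below for 3, against 18.0% and 16.9% of all genes. Both comparisons use the same 4 control arrays.

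In laser-ablated against bur-drilled bone, Col1a2, Col8a1 and Col2a1 were higher and Col17a1 was lower, and 32 genes were not called, where 25.1% of all genes were called, 11.5% as higher and 13.6% as lower. The share of collagen genes called was thus below the share of all genes. Of those called, Col2a1 passed the filter on dim probes through the laser arrays alone. The median was 0.15 over the collagen genes and -0.06 over all genes. Laser values lay wholly above bur values for 6 collagen genes and wholly below for 1, against 14.0% and 19.5% of all genes. With each array scaled to its 75th percentile in place of quantile normalisation, 6 genes were called higher and 0 lower in this comparison. That scaling moved the share of higher calls among all called probes from 61.0% to 39.0% for bur against control and from 49.6% to 58.4% for laser against bur, and the median over all probes from 0.09 to -0.11 for bur against control. No called collagen gene changed its sign under it or under any other alternative run.

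**Figure D1:**
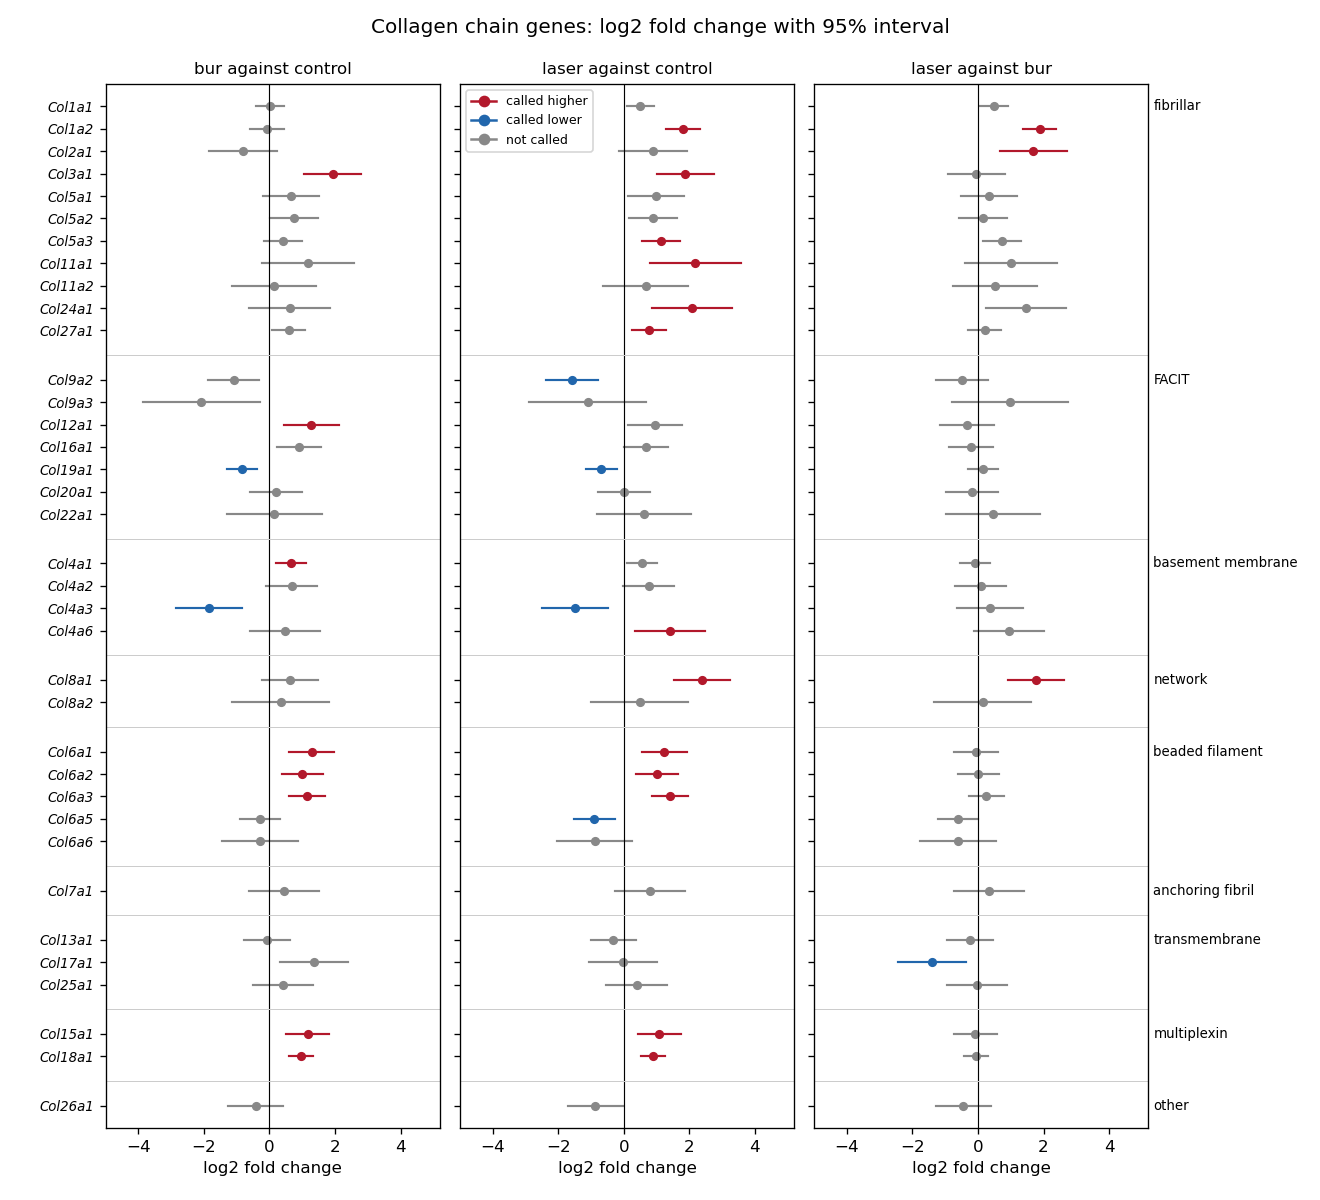
Log2 fold change of the 36 kept collagen chain genes (dots, brightest kept probe) with limma's 95% interval (lines), by class, in each of the 3 comparisons of 4 against 4 arrays. Red marks genes called higher, blue genes called lower and grey genes not called; the multiplexins and 3 type VI chains are red in both comparisons with control and grey in laser against bur.

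Levels below are quantile-normalised log2 signals, given in the order of arrays 1 to 4 of each group. Of the 2 chains of type I collagen, the bulk of the bone matrix, Col1a2 read higher on all laser arrays than on any other array, and Col1a1 did so by 1 of its 2 kept probes. Col1a2, its second chain, read 14.52, 14.45, 13.52 and 13.51 on control arrays, 13.75, 14.08, 13.97 and 13.91 on bur arrays and 15.87, 15.74, 15.93 and 15.69 on laser arrays. Laser values were all above the others, bur and control values overlapped, and control arrays 1 and 2 read higher than control arrays 3 and 4. Col1a2 was 3.50-fold higher in laser than in control bone, a log2 fold change of 1.81 ± 0.23 (SE, n = 4 per group; limma adjusted p = 0.000196). It was 3.68-fold higher in laser than in bur bone, at 1.88 ± 0.23 (adjusted p = 0.000169). For bur against control the value was -0.07 (adjusted p = 0.863); limma's 95% interval of this fold ran from 0.667 to 1.36. Both laser calls were kept with each array left out and under every other alternative that was run.

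Col1a1, the chain present in 2 copies per molecule, was read by 2 kept probes that differed. The brightest, A_64_P040278, read 16.30, 16.18, 15.45 and 15.74 on control arrays, 15.75, 16.00, 15.94 and 16.06 on bur arrays and 16.59, 16.59, 16.32 and 16.21 on laser arrays. Laser values lay above all bur values but overlapped the control values. Its log2 fold change of laser over control was 0.51 ± 0.19 (adjusted p = 0.0622), that of laser over bur was 0.49 (adjusted p = 0.0824) and that of bur over control was 0.02 (adjusted p = 0.952), so none was called. The other probe, A_44_P238421, read 14.60, 14.29, 13.45 and 13.43 on control arrays, 13.54, 13.88, 13.73 and 13.88 on bur arrays and 15.48, 15.24, 15.41 and 15.21 on laser arrays. By this probe the laser values lay above all others, as for Col1a2. Col1a1 was then 2.62-fold higher in laser than in control bone (log2 1.39 ± 0.25, adjusted p = 0.00153) and 2.99-fold higher than in bur bone (1.58 ± 0.25, adjusted p = 0.000817), and both calls were kept with each array left out.

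The brightest Col1a1 probe ranked between 9 and 79 from the top among 27194 kept probes on the 12 arrays, and the other between 73 and 486, while the highest signal of an array was 17.1 to 17.6. No spot was saturated, and whether the height of the signal had a part in the smaller fold was not tested. The probes begin at transcript bases 5717 for the brightest and 4634 for the other, at chr10:83639260-83639319 and chr10:83638177-83638236 (rn4, plus strand). Parts of 30 bases of each are printed, since the reading of the gene turns on them, along with 30 bases of the Col1a2 probe at chr4:29428206-29428265 on the plus strand, and no base is marked.
Col1a1, A_64_P040278, bases 31 to 60: tttgtatgtgtataataatttgagatgttt
Col1a1, A_44_P238421, bases 1 to 30: aacttagtttttatctttgaccaactgaac
Col1a2, A_43_P12783, bases 1 to 30: ggccctgtctgtttcaaataagtgaactca
The brightest Col1a1 probe was called higher in laser than in control bone without control 1 (0.64, adjusted p = 0.0256) or control 2 (0.60, adjusted p = 0.0474). It was also called with normexp, another background correction, at 0.59 over control and 0.50 over bur, and with array weights, at 0.62 and 0.52, and against control with only probes well above background on all 12 arrays (adjusted p = 0.0447). With only the 2 groups in the fit it was called over bur (adjusted p = 0.0283), and with 75th percentile scaling its value over bur was 0.97 (adjusted p = 0.0283). With the mean of both probes Col1a1 was called in both laser comparisons, at 0.95 against control (adjusted p = 0.00637) and 1.03 against bur (adjusted p = 0.00512). In the authors' deposited table of comparisons A_44_P238421 had 1.05 for laser against control (adjusted p = 0.000749) and 1.05 for laser against bur (adjusted p = 0.000902).

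Col3a1, a fibrillar chain of soft and healing connective tissue, was high in both cut groups. It read 11.21, 11.39, 11.02 and 10.92 on control arrays, 12.48, 13.35, 12.62 and 13.81 on bur arrays and 12.13, 13.52, 13.92 and 12.51 on laser arrays. No control value reached a bur or laser value, and bur and laser values covered the same range. Col3a1 rose 3.81-fold with the bur (log2 1.93 ± 0.40, adjusted p = 0.00689) and 3.69-fold with the laser (1.88 ± 0.40, adjusted p = 0.00429). For laser against bur the value was -0.05 (adjusted p = 0.95); its 95% interval as a fold was 0.527 to 1.78. Both calls held with each array left out.

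**Figure D2:**
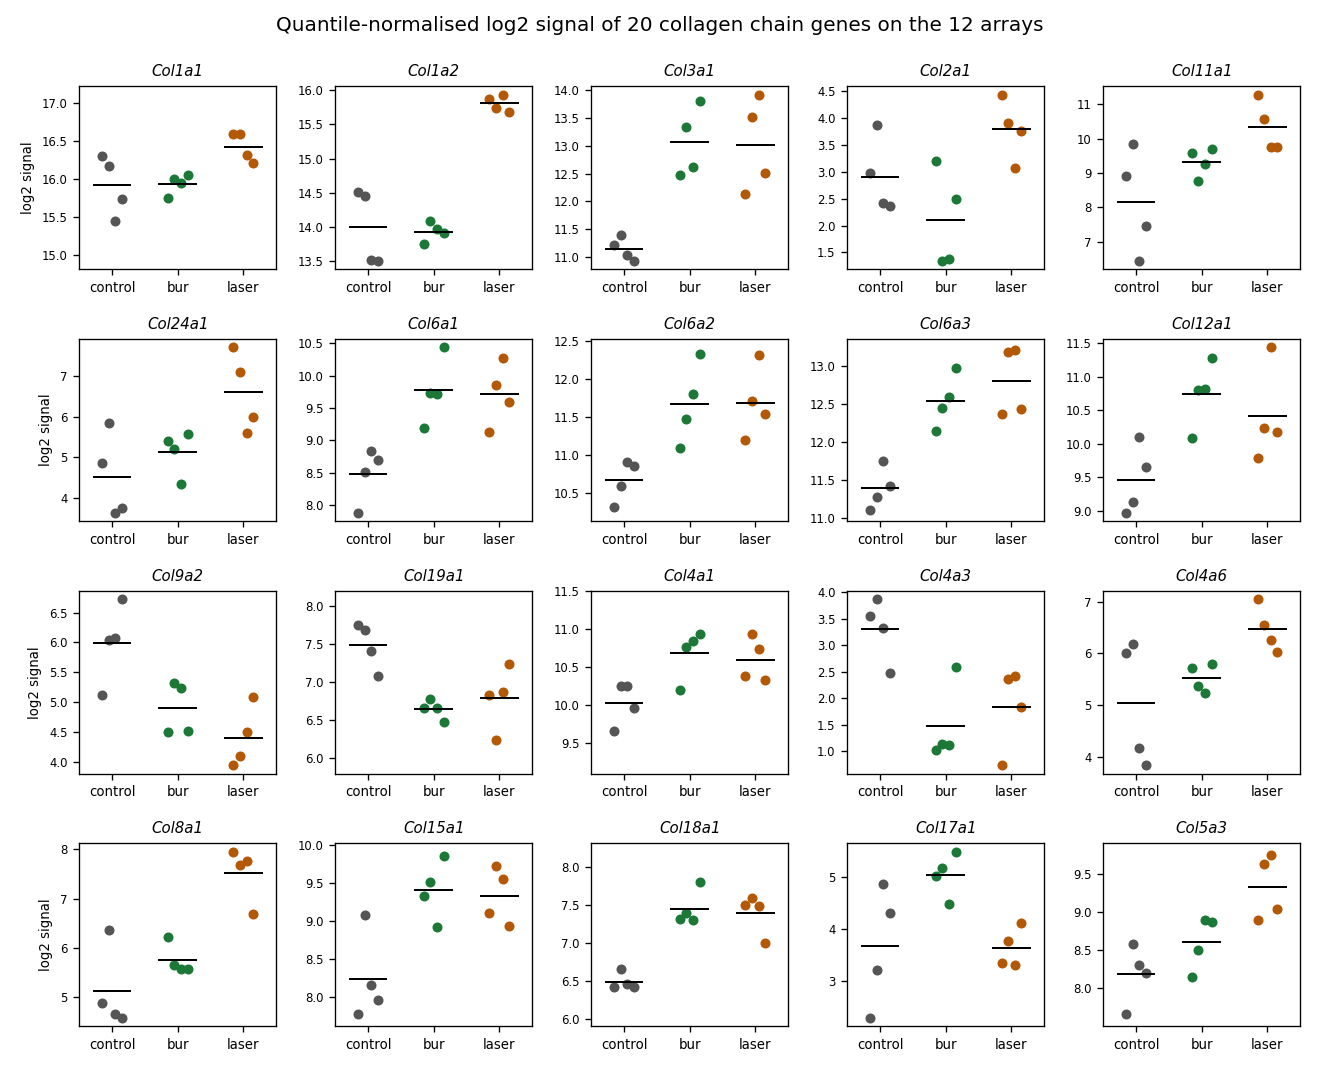
Quantile-normalised log2 signal of 20 collagen chain genes on each of the 12 arrays (dots, arrays 1 to 4 from left to right in each group) with the group mean (bar); every panel has its own axis. Col1a2 sits between 15.69 and 15.93 on laser arrays, above all others, while Col3a1 and Col18a1 are above the control arrays on bur and laser arrays alike.

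The fibrillar chains that control the start and width of fibres, those of types V and XI, differed less clearly. Col11a1 rose 4.55-fold with the laser (2.19 ± 0.64, adjusted p = 0.0220), but control arrays read 8.91, 9.84, 6.44 and 7.45 and overlapped the laser arrays at 11.28, 10.58, 9.76 and 9.75, while bur arrays read 9.59, 8.75, 9.27 and 9.71. Control array 2 thus lay above 2 laser arrays and control array 3 far below. The call was lost without control 4 (1.95), laser 1 (1.87) or laser 2 (2.11), with adjusted p from 0.0555 to 0.0675, and with only the 2 groups in the fit (adjusted p = 0.0502). Col5a3 rose 2.21-fold with the laser (1.14 ± 0.26, adjusted p = 0.00660) from 7.66, 8.58, 8.30 and 8.19 to 8.89, 9.63, 9.74 and 9.04, with no overlap and with the call kept without any 1 array. With normexp the value was 0.76. Bur arrays, at 8.14, 8.50, 8.90 and 8.87, overlapped both groups. Col5a1 had 0.98 for laser against control (adjusted p = 0.0735), Col5a2 had 0.90 (adjusted p = 0.0628) and Col11a2 had 0.67 (adjusted p = 0.414), and none was called in any comparison.

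The fibrillar chains Col24a1 and Col27a1, the first found mainly in bone and cornea and the other in cartilage, also rose with the laser. Col24a1 read 4.86, 5.83, 3.63 and 3.75 on control arrays, 5.39, 5.21, 4.35 and 5.58 on bur arrays and 7.70, 7.09, 5.61 and 5.98 on laser arrays. Laser values were all above bur values, and control array 2 overlapped them. The rise over control was 4.22-fold (2.08 ± 0.56, adjusted p = 0.0152), kept with each array left out. It was 1.01 with normexp. Col27a1 read 6.48, 7.25, 7.36 and 7.17 on control arrays, 7.33, 8.04, 7.61 and 7.61 on bur arrays and 7.38, 7.96, 8.11 and 7.93 on laser arrays, the last all just above control. It rose 1.72-fold with the laser (0.78 ± 0.23, adjusted p = 0.0250), a call lost without control 1 (0.59), laser 2 (0.74), laser 3 (0.69) or laser 4 (0.75), with adjusted p from 0.0540 to 0.0690. The value was 0.59 with 75th percentile scaling (adjusted p = 0.0640), 0.28 with normexp (adjusted p = 0.307) and 0.32 with the authors' deposited values (adjusted p = 0.317). A second kept probe, A_64_P136377, had 0.59 for laser against control and was not called. It read 4.69, 5.24, 5.23 and 5.18 on control arrays, 5.93, 5.70, 4.87 and 5.54 on bur arrays and 5.43, 6.13, 5.49 and 5.65 on laser arrays.

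Col2a1, the chain of cartilage fibres, was well above background on the 4 laser arrays only. It read 4.43, 3.91, 3.07 and 3.77 there (mean 3.80), against 3.20, 1.34, 1.39 and 2.48 on bur arrays (mean 2.10) and 2.97, 3.86, 2.42 and 2.35 on control arrays (mean 2.90). Bur array 1 lay above laser array 3, so the groups overlapped. Col2a1 thus passed the filter on dim probes through the laser arrays alone, so its call is not independent of that filter. The fitted value for laser against bur was 1.69 (adjusted p = 0.0213). With the bur arrays set at a floor, the group mean was 2.20-fold higher in laser bone. The floor is the higher of an array's own signal and the lowest signal on it that is well above background. A probe's own limit can lie higher, since bur array 1 read 3.20 and was not well above background. The fold at the floor compares group means without sampling error, so it is not a lower limit. The call was lost without bur 2 (1.44), bur 3 (1.45), laser 1 (1.48) or laser 2 (1.65), with adjusted p from 0.0519 to 0.0651, and the fitted value was 0.26 with normexp. The chondrocyte regulator Sox9 was also higher in laser than in bur bone (1.61, adjusted p = 0.00462), while Comp (-0.70) and Snorc (-0.07) were not called and the other 5 chondrocyte markers were not kept.

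Of the 5 kept type VI genes, whose chains assemble into beaded filaments beside cells and blood vessels, Col6a1, Col6a2 and Col6a3 rose in both comparisons with control. Col6a3, the long chain, read 11.11, 11.29, 11.76 and 11.42 on control arrays, 12.15, 12.45, 12.59 and 12.97 on bur arrays and 12.38, 13.18, 13.21 and 12.43 on laser arrays. It rose 2.22-fold with the bur (1.15 ± 0.25, adjusted p = 0.00858) and 2.65-fold with the laser (1.41 ± 0.25, adjusted p = 0.00148), each call being kept without any 1 array. Its 4 kept probes were all called higher in both, at 1.15 to 2.36 for the bur and 1.41 to 2.16 for the laser, and the mean of the 4 had 1.80 for the bur. A_43_P20052 lost the laser call without control 1 (1.34), control 4 (1.32), laser 2 (1.14) or laser 3 (1.21). A_44_P1155252 lost the bur call without bur 2 (2.30), bur 3 (2.41) or bur 4 (2.09) and the laser call without laser 2 (1.99) or laser 3 (1.97), and had 1.41 for the laser without control 1. A_44_P1363281, at 1.58 ± 0.26 and 2.08 ± 0.26, kept both calls with each array left out and under the other alternatives run.

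Col6a1 read 7.87, 8.51, 8.83 and 8.69 on control arrays, 9.19, 9.73, 9.72 and 10.44 on bur arrays and 9.13, 9.85, 10.27 and 9.59 on laser arrays. It rose 2.46-fold with the bur (1.3 ± 0.31, adjusted p = 0.0145) and 2.35-fold with the laser (1.24 ± 0.31, adjusted p = 0.0111), with no overlap with control and with both calls kept without any 1 array. With the mean of its probes the laser value was 0.68 (adjusted p = 0.0860). A second Col6a1 probe, A_44_P1152952, also rose with the bur (1.08, adjusted p = 0.0245) but had 0.13 for laser against control (adjusted p = 0.756) and was lower in laser than in bur bone (-0.94, adjusted p = 0.0345). It read 6.21, 7.22, 6.90 and 6.39 on control arrays, 7.37, 7.84, 7.76 and 8.05 on bur arrays and 6.48, 7.24, 7.29 and 6.25 on laser arrays. By that probe laser and control values overlapped and all bur values were the highest. It lost the bur call without control 1 (0.92), control 4 (0.98), bur 2 (1.05) or bur 4 (0.98), and the laser against bur call without bur 2 (-0.91), bur 3 (-0.94), bur 4 (-0.84), laser 1 (-0.83) or laser 4 (-0.75).

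Col6a2 read 10.33, 10.59, 10.92 and 10.86 on control arrays, 11.10, 11.48, 11.80 and 12.33 on bur arrays and 11.19, 11.72, 12.32 and 11.54 on laser arrays, with no overlap with control. It rose 2.01-fold with the bur (1.0 ± 0.29, adjusted p = 0.0316) and 2.02-fold with the laser (1.02 ± 0.29, adjusted p = 0.0198). The bur call was lost without control 1 (0.89), control 2 (0.98), bur 3 (0.96) or bur 4 (0.78), with only the 2 groups in the fit (adjusted p = 0.0533) and with array weights (adjusted p = 0.0600), and the laser call without laser 3 (0.81). A second probe, A_42_P630260, read 6.48, 7.29, 7.51 and 7.22, then 7.49, 8.06, 8.51 and 9.03, then 7.54, 8.26, 8.61 and 7.97 on control, bur and laser arrays, with 1.15 for the bur (adjusted p = 0.0373) and 0.97 for the laser (adjusted p = 0.0504). Its lowest bur value lay just below its highest control value, and its bur call was lost without control 1 (0.93), control 2 (1.2), control 4 (1.18), bur 2 (1.22), bur 3 (1.07) or bur 4 (0.90).

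The chains Col6a5 and Col6a6, which can take the place of Col6a3, did not follow. Col6a5 fell 1.86-fold with the laser (log2 -0.89 ± 0.28, adjusted p = 0.0300), from 7.28, 7.57, 7.85 and 7.36 on control arrays to 6.64, 6.89, 6.66 and 6.31 on laser arrays. These groups did not overlap, and bur arrays, at 6.79, 8.09, 7.35 and 6.73, spanned both. The call was lost without control 2 (-0.87), control 3 (-0.78), laser 1 (-0.90), laser 3 (-0.90) or laser 4 (-0.79), with adjusted p from 0.0573 to 0.0793, and with normexp (-0.55, adjusted p = 0.0660). The second Col6a5 probe, A_64_P023381, was called lower too (-1.3, adjusted p = 0.0167), and that call held with each array left out, although the value was -0.23 with normexp and -0.42 with the authors' deposited values. Col6a6 was not called in any comparison.

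Among the multiplexins, basement membrane collagens whose ends release the fragments restin and endostatin, both genes rose in both cut groups. Col18a1 read 6.41, 6.65, 6.46 and 6.42 on control arrays, 7.32, 7.39, 7.30 and 7.80 on bur arrays and 7.49, 7.60, 7.49 and 7.0 on laser arrays. It rose 1.95-fold with the bur (0.96 ± 0.17, adjusted p = 0.00290) and 1.87-fold with the laser (0.91 ± 0.17, adjusted p = 0.00185), without overlap with control. Both calls were kept with each array left out and under all 11 other alternatives. Col15a1 read 7.79, 9.08, 8.16 and 7.96 on control arrays, 9.33, 9.52, 8.92 and 9.86 on bur arrays and 9.11, 9.72, 9.55 and 8.93 on laser arrays, with only control array 2 in the range of the treated arrays. It rose 2.24-fold with the bur (1.16 ± 0.30, adjusted p = 0.0198) and 2.12-fold with the laser (1.08 ± 0.30, adjusted p = 0.0175). The bur call was lost without control 1 (1.01), control 4 (1.07) or bur 4 (1.01) and with only the 2 groups in the fit (adjusted p = 0.0516), and the laser call without laser 2 (0.95). Without control 1 and control 4 together, the laser value was 0.71 (adjusted p = 0.155).

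Col8a1, a network-forming chain made by vessel and other mesenchymal cells, rose with the laser. It read 4.90, 6.36, 4.67 and 4.59 on control arrays, 6.22, 5.67, 5.57 and 5.57 on bur arrays and 7.95, 7.68, 7.76 and 6.69 on laser arrays, all of which lay above every other array. The rise was 5.24-fold over control (2.39 ± 0.39, adjusted p = 0.000938) and 3.40-fold over bur bone (1.76 ± 0.39, adjusted p = 0.00705). Both calls held with each array left out and under every other alternative run, although normexp gave 1.42 over control. For bur against control the value was 0.63 (adjusted p = 0.287). Its partner chain Col8a2 was not called, and Col10a1, the network chain of hypertrophic cartilage, was not well above background on any array.

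The basement membrane chains of type IV moved apart. Col4a1, a chain of all basement membranes, read 9.67, 10.25, 10.25 and 9.96 on control arrays, 10.20, 10.77, 10.85 and 10.94 on bur arrays and 10.38, 10.93, 10.74 and 10.34 on laser arrays. It rose 1.57-fold with the bur (0.66 ± 0.21, adjusted p = 0.0498), with bur array 1 within the control range. The laser values were all above control, at 0.56 (adjusted p = 0.0627), and were not called. They were called with 75th percentile scaling (0.64, adjusted p = 0.0406), normexp (0.51, adjusted p = 0.0489) and only probes well above background on all 12 arrays (adjusted p = 0.0452). Without control 1 (0.53), control 2 (0.73), control 4 (0.63), bur 2 (0.63), bur 3 (0.60) or bur 4 (0.57) the bur call was lost, with adjusted p from 0.0530 to 0.130. It was also lost with no filter on dim probes (adjusted p = 0.0535), only the 2 groups in the fit (0.0959) and array weights (0.0789), and without control 1 and control 4 together the value was 0.44 (adjusted p = 0.289).

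Col4a2, whose protein joins Col4a1 in 1 molecule, read 4.18, 4.56, 5.70 and 5.50 on control arrays, 5.15, 5.42, 6.04 and 6.06 on bur arrays and 5.40, 5.89, 6.20 and 5.49 on laser arrays. The groups overlapped and no comparison was called, at 0.68 with the bur (adjusted p = 0.197), 0.76 with the laser (adjusted p = 0.121) and 0.08 between them (adjusted p = 0.901). The intervals of the fold, 0.939 to 2.75 and 0.990 to 2.89 over control, include the rise of Col4a1.

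Col4a3, a chain of kidney and lung basement membranes, was dim. It read 3.56, 3.87, 3.33 and 2.47 on control arrays (mean 3.31), 1.02, 1.13, 1.12 and 2.60 on bur arrays (mean 1.47) and 0.73, 2.36, 2.41 and 1.82 on laser arrays, and it was well above background on 2 control, 0 bur and 2 laser arrays. Only bur array 4 reached the control values. Against control, Col4a3 had a fitted log2 fold change of -1.84 in bur bone (adjusted p = 0.0171). With bur arrays at the floor described for Col2a1, the group mean was 1.70-fold lower there. In laser bone the fitted value was -1.48 ± 0.46 (adjusted p = 0.0296), and 2 control and 2 laser arrays were not well above background. The bur call was kept with each array left out, and the laser call was lost without control 1 (-1.39), control 2 (-1.29), control 3 (-1.47), laser 1 (-1.11) or laser 4 (-1.48). With normexp the values were -0.20 for the bur and -0.21 for the laser, and with array weights neither was called (adjusted p = 0.111 and 0.0743).

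Col4a6 was read by a probe in its repeat, printed above, at 6.0, 6.17, 4.17 and 3.83 on control arrays, 5.72, 5.37, 5.23 and 5.79 on bur arrays and 7.04, 6.55, 6.25 and 6.03 on laser arrays. It rose 2.68-fold with the laser (1.42 ± 0.49, adjusted p = 0.0436), with control arrays 1 and 2 near the laser arrays and 3 and 4 far below. The call was lost without control 3 (1.13), control 4 (1.02), laser 1 (1.23), laser 2 (1.40), laser 3 (1.5) or laser 4 (1.57), with adjusted p from 0.0529 to 0.117, and under 7 other alternatives, among them normexp (0.52) and the authors' deposited values (0.74). A second probe, A_64_P062810, read 1.83, 6.94, 2.82 and 3.81 on control arrays, 0.73, 4.65, 0.72 and 0.72 on bur arrays and 3.96, 3.82, 7.14 and 5.52 on laser arrays. It was not called in any comparison, at 1.26 for laser against control (adjusted p = 0.458) and -2.14 with the bur (adjusted p = 0.239), and it was well above background on only 1 bur array. Its last 30 bases hold AATAAA, the hexamer of polyadenylation signals, in capitals.
Col4a6, A_64_P062810, bases 31 to 60: acatagcaAATAAAattaatgaaatgcgaa

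The FACIT collagens link fibres to their surroundings. Of 7 kept genes, 1 rose and 1 fell with the bur, where 12.4% and 9.11% of all genes did. With the laser 0 rose and 2 fell, against 17.5% and 15.5% of all genes. Counts this small do not set the class apart from all genes. Col12a1, a chain of stretched and healing tissue, read 8.97, 9.13, 10.11 and 9.66 on control arrays, 10.09, 10.80, 10.82 and 11.28 on bur arrays and 9.80, 10.24, 11.45 and 10.18 on laser arrays. Bur array 1 overlapped the control arrays, and laser array 3 stood above the other laser arrays. It rose 2.43-fold with the bur (1.28 ± 0.38, adjusted p = 0.0354) and had 0.95 with the laser (adjusted p = 0.0768). Its brightest probe lost the bur call without control 1 (1.11), control 2 (1.17), control 4 (1.34), bur 2 (1.26), bur 3 (1.25) or bur 4 (1.1), with adjusted p from 0.0559 to 0.0988, and with array weights (adjusted p = 0.0690).

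The other 3 Col12a1 probes were also called higher with the bur, and A_43_P10762 kept that call with each array left out. A_43_P10762 read 4.52, 4.61, 5.15 and 4.77 on control arrays and 5.98, 7.24, 6.66 and 7.24 on bur arrays, with no overlap, a rise of 4.04-fold (2.01 ± 0.41, adjusted p = 0.00669). With the laser this probe (1.32, adjusted p = 0.0309) and A_64_P137052 (1.48, adjusted p = 0.0231) were called higher, while A_44_P1155876 was not (0.69, adjusted p = 0.315). On laser arrays A_43_P10762 read 5.13, 6.29, 7.21 and 5.69, and its laser call was lost without control 1 (1.23), control 2 (1.26), control 4 (1.32), laser 2 (1.24) or laser 3 (0.94), with 75th percentile scaling (adjusted p = 0.0757) and with array weights (adjusted p = 0.0693). With normexp it had 1.12 for the bur and 0.67 for the laser, both called. A_64_P137052 read 5.14, 6.01, 6.45 and 5.79 on control arrays, 6.83, 7.86, 7.69 and 7.51 on bur arrays and 6.58, 7.07, 8.69 and 6.96 on laser arrays, with both treated groups above control. It lost the laser call without control 1 (1.25) and the bur call without control 1 (1.39), bur 2 (1.5), bur 3 (1.55) or bur 4 (1.61). A_44_P1155876 lost the bur call without control 1 (1.47), control 4 (1.65), bur 2 (1.52), bur 3 (1.67) or bur 4 (1.64), with 75th percentile scaling and with array weights, and it had 0.59 with normexp. By each of the 4 probes the laser array with the highest value was array 3.

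Col9a2, a chain of the FACIT collagen on cartilage fibres, fell 3.00-fold with the laser (-1.58 ± 0.36, adjusted p = 0.00614). It read 5.11, 6.04, 6.07 and 6.72 on control arrays, 4.5, 5.32, 5.24 and 4.51 on bur arrays and 3.94, 4.09, 4.49 and 5.09 on laser arrays. The highest laser value was just below the lowest control value, and bur values overlapped both groups, at -1.09 against control (adjusted p = 0.0523). The laser call was kept with each array left out, at -0.59 with normexp and -0.86 with the authors' deposited values.

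Col9a3, its partner chain, was not called by its brightest probe, A_44_P1092926, which read 4.60, 4.85, 2.5 and 3.91 on control arrays, 1.82, 2.51, 0.87 and 2.36 on bur arrays and 1.42, 1.61, 5.34 and 3.10 on laser arrays. Control array 3 overlapped the bur arrays and laser array 3 was the highest of all. The other probe, A_44_P1365262, was well above background on the 4 laser arrays only, at 2.87, 2.24, 3.10 and 3.13. It thus passed the filter on dim probes through those arrays alone, so its call is not independent of that filter. The fitted value for laser against bur was 1.46 (adjusted p = 0.0285). With bur arrays at the floor described for Col2a1, the group mean was 1.2-fold higher on laser arrays. The probe read 2.33, 1.59, 1.58 and 2.05 on control and 2.91, 0.87, 0.89 and 0.82 on bur arrays, so that bur array 1 lay among the laser arrays. That call was lost without bur 2 (1.29), bur 3 (1.3), bur 4 (1.28), laser 1 (1.45), laser 3 (1.37) or laser 4 (1.36), and with normexp (0.10, adjusted p = 0.287). For laser against control the 2 probes had opposite signs, -1.1 and 0.95. The stretch of the brightest holds AATAAA in overlapping copies, in capitals, and that of the other does not.
Col9a3, A_44_P1092926, bases 31 to 60: ccatatgtcacAATAAATAAAgctactcac
Col9a3, A_44_P1365262, bases 1 to 30: agtgagcaaattgcacagctggctgcacac

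Col19a1, a rare FACIT-like collagen, fell in both cut groups by its brightest probe, which read 7.75, 7.69, 7.41 and 7.08 on control arrays, 6.66, 6.78, 6.66 and 6.48 on bur arrays and 6.83, 6.25, 6.88 and 7.24 on laser arrays. Bur values were all below control, and laser array 4 overlapped it. The fall was 1.79-fold with the bur (-0.84 ± 0.21, adjusted p = 0.0186) and 1.61-fold with the laser (-0.68 ± 0.21, adjusted p = 0.0301). The bur call was lost without bur 4 (-0.78), and the laser call without control 1 (-0.59), control 2 (-0.61), laser 1 (-0.70), laser 2 (-0.50) or laser 3 (-0.71). A second probe, A_44_P798116, had the opposite sign, at 0.58 for the bur (adjusted p = 0.524) and 0.46 for the laser (adjusted p = 0.591). It read 4.37, 1.37, 4.29 and 3.26 on control, 4.45, 3.16, 3.90 and 4.11 on bur and 4.14, 4.14, 2.87 and 3.97 on laser arrays, with control array 2 far below the rest. The mean of both probes was not called, at -0.13 and -0.11. Array weights ended the bur call (adjusted p = 0.101), and normexp (-0.31), the authors' deposited values (-0.41) and a fit of only the 2 groups (adjusted p = 0.0632) the laser call.

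Col20a1 was not called by its brightest probe, which read 6.33, 7.68, 7.30 and 6.65 on control, 6.67, 6.94, 7.72 and 7.38 on bur and 7.80, 6.97, 6.74 and 6.5 on laser arrays. A second probe, A_43_P22039, read 4.95, 5.36, 4.46 and 4.32 on control, 5.13, 4.91, 4.58 and 4.76 on bur and 6.02, 5.90, 5.84 and 5.58 on laser arrays, the last above all others. It was called higher in laser than in control bone (1.06, adjusted p = 0.00418) and than in bur bone (0.99, adjusted p = 0.00763), with each array left out too, although normexp gave 0.39 and 0.49. Across the 12 arrays the 2 probes correlated at r = 0.03, given as a description. Col16a1, a FACIT of skin and cartilage, had 0.91 with the bur (adjusted p = 0.0573) and 0.69 with the laser (adjusted p = 0.107), and Col22a1, a chain of tissue junctions, was not called in any comparison.

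Of the remaining classes, Col17a1, a transmembrane chain of hemidesmosomes in epithelia, was lower in laser than in bur bone by 2.64-fold (-1.40 ± 0.47, adjusted p = 0.0478). It read 2.30, 3.22, 4.87 and 4.31 on control arrays, 5.02, 5.17, 4.48 and 5.49 on bur arrays and 3.35, 3.76, 3.32 and 4.12 on laser arrays. Laser values were all below bur values, and control values spanned both. Its 1 probe, A_42_P665039, has a listed rn4 place of 32 bases for 60 bases of probe. The call was lost without bur 1 (-1.41), bur 2 (-1.36), bur 4 (-1.25), laser 1 (-1.31), laser 2 (-1.44), laser 3 (-1.3) or laser 4 (-1.56), with adjusted p from 0.0565 to 0.114. The value was -0.43 with normexp and -0.71 with the authors' deposited values, both called. It was not called with 75th percentile scaling (-1.16, adjusted p = 0.0623), with no filter on dim probes (adjusted p = 0.0653), with 1 probe per gene in the fit (0.0502) or with the mean of a gene's probes (0.0524). Of 6 epidermal markers, 5 were kept, and their summed log2 signal was 10.76 to 11.36 on bur, 10.32 to 11.02 on laser and 10.87 to 11.65 on control arrays. Krt5 and Krt14 were called higher in laser than in bur bone, while Krt10 (0.11), Krt1 (-1.14) and Tp63 (-0.21) were not called. Over all genes 11.5% were called higher in that comparison. The part of these markers in the Col17a1 result was not tested. Col7a1, the anchoring fibril chain, Col13a1, Col25a1 and Col26a1 were not called in any comparison.

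**Figure D3:**
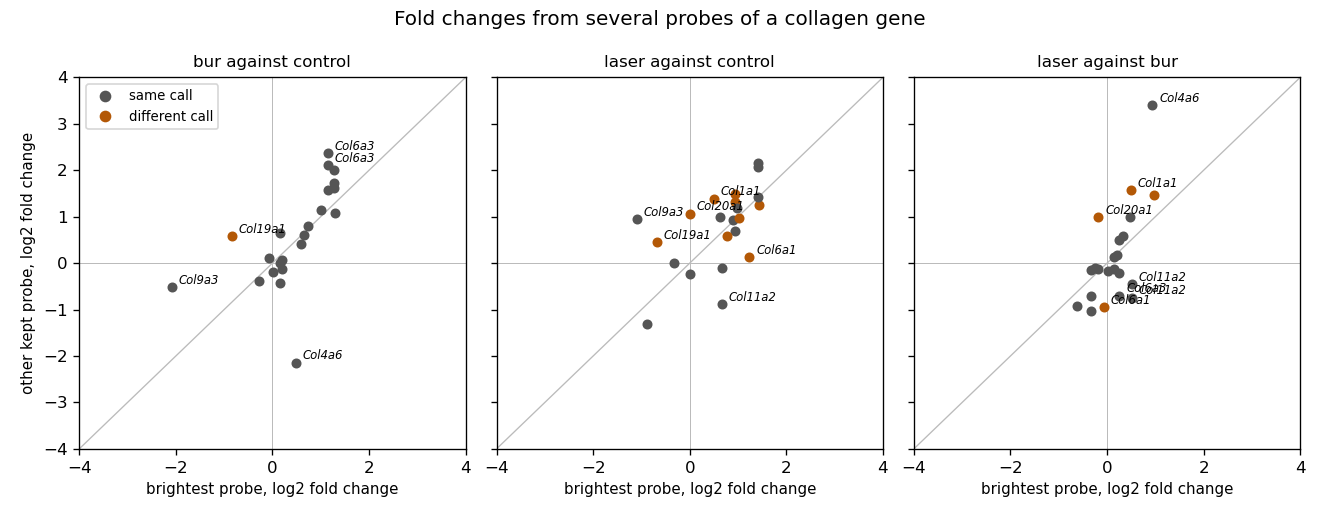
Log2 fold change of the brightest kept probe of a gene (x axis) against each of its other kept probes (y axis), 22 probes of 16 genes in each comparison; the diagonal marks equal values and orange marks a different call. In bur against control only Col19a1 is orange, and names are printed where the 2 values differ by more than 0.85.

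Probes of a gene did not always agree, and agreement in other genes of the array was not counted. Of the 36 kept genes, 16 had several kept probes. All kept probes of a gene had the same sign in 9 of 16 genes for bur against control, 12 of 16 for laser against control and 11 of 16 for laser against bur. They had the same call in 15, 8 and 12 of 16. Over all kept probes, 20.1%, 32.5% and 26.7% were called in these comparisons. The median gap between the highest and lowest value of a gene was 0.22, 0.58 and 0.51 log2. Over the 12 arrays, 6 of 22 pairs of a brightest and another probe correlated above 0.9 and 4 below 0.5, given as a description.

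**Figure D4:**
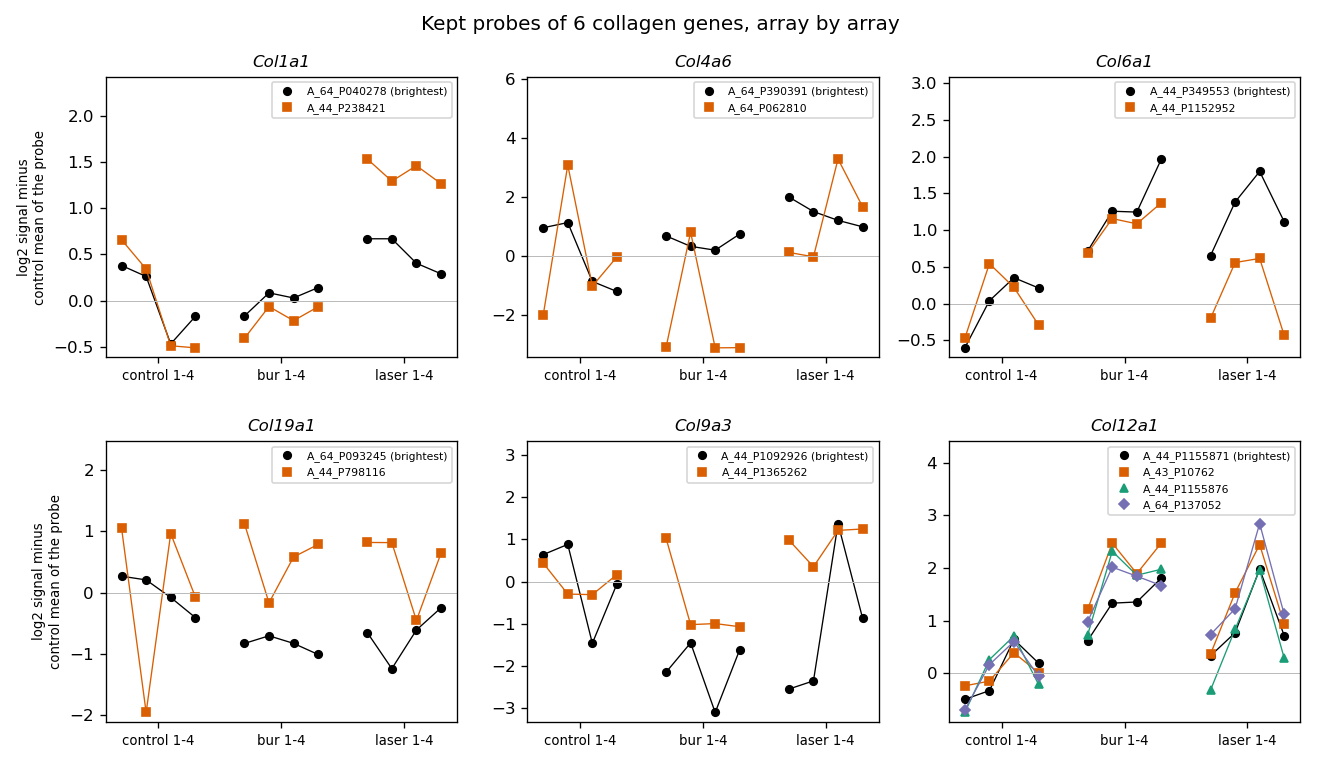
Log2 signal of each kept probe of 6 genes minus that probe's control mean, over control, bur and laser arrays 1 to 4; lines only join the arrays of a group and carry no order. The 2 Col1a1 probes run together on control and bur arrays and part on laser arrays, where the brightest probe is 0.51 and the other 1.39 above its control mean.

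The pairs that agreed best were Col5a2, at r = 0.99, Col6a2 and one Col6a3 probe, at 0.97, and Col5a1, at 0.96. The 2 Col5a2 probes are not independent, because they share 18 bases, acaactttggtcatgtat. The widest gap in each comparison was that of Col4a6 for bur against control, 2.63, Col9a3 for laser against control, 2.05, and Col4a6 for laser against bur, 2.46. Col11a2 was read by 3 kept probes, and none of its values was called. Its brightest read 10.31, 12.15, 9.38 and 10.49 on control, 10.66, 10.89, 10.15 and 11.22 on bur and 12.49, 11.48, 10.11 and 10.91 on laser arrays, all overlapping. For laser against control that probe had 0.67, the repeat probe A_44_P1115707 had -0.10 and A_44_P1115647 had -0.88. Col13a1 and Col22a1 differed only in the sign of values near 0 that were not called. Col13a1 by its brightest probe read 8.56, 9.89, 8.50 and 8.86 on control, 8.81, 8.61, 9.01 and 9.07 on bur and 8.72, 8.54, 9.21 and 8.06 on laser arrays. Col22a1 read 8.14, 9.83, 6.01 and 7.33, then 8.38, 7.86, 7.52 and 8.15, then 9.29, 8.76, 7.68 and 8.05, with control arrays 2 and 3 at the ends of the range.

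The genes that make and fold collagen chains were next compared, from a list of 20 that were all kept. With the bur 7 of them rose and 0 fell, where 21.5% of all genes were called, with a median of 0.76 against 0.07 over all genes. With the laser 10 rose and 0 fell, where 33.0% of all genes were called, with a median of 0.93 against 0.01. Against bur bone, laser bone had 2 higher and 4 lower, where 25.1% of all genes were called. The lysyl hydroxylases Plod1, Plod2 and Plod3, which prepare crosslinks, rose with the bur, by 2.48-fold, 2.24-fold and 1.88-fold (adjusted p = 0.00199, 0.0267 and 0.000966). With the laser Plod2 rose 2.24-fold and Plod3 1.38-fold (adjusted p = 0.0177 and 0.0147), and Plod1 was not called. Plod1 was lower in laser than in bur bone (-1.04, adjusted p = 0.00412). Crtap, part of the prolyl 3-hydroxylase complex, rose 4.48-fold with the laser (2.16 ± 0.39, adjusted p = 0.00158) and was 4.03-fold higher than in bur bone. Serpinh1, the collagen chaperone, rose 2.36-fold with the laser (adjusted p = 0.0360), Fkbp10, a folding enzyme, 3.78-fold (adjusted p = 0.00241), and Creb3l1, an activator of type I collagen genes in osteoblasts, 3.79-fold (adjusted p = 0.0103).

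Of the genes that process propeptides, 7 of 8 were kept, and only Pcolce2, an enhancer of the C-propeptidase, was called. Over all genes, 21.5% were called for bur against control, 33.0% for laser against control and 25.1% for laser against bur. It rose 4.75-fold with the bur (2.25 ± 0.42, adjusted p = 0.00433) and 3.29-fold with the laser (1.72 ± 0.42, adjusted p = 0.00959). Of 10 collagen receptors, 9 were kept, and 0 were called higher and 1 lower in laser than in bur bone. Ddr2, a tyrosine kinase receptor for fibrillar collagen, rose 1.58-fold with the bur (adjusted p = 0.0492) and 1.72-fold with the laser (adjusted p = 0.0158). Ddr1, its epithelial relative, fell 2.61-fold with the laser (adjusted p = 0.00978), and Gp6, the platelet receptor, rose 1.93-fold with the bur (adjusted p = 0.0478). Of 6 collagen-degrading proteases, 1 was called higher and 1 lower in laser than in bur bone. Among the 6, Mmp14 rose 1.74-fold with the bur (adjusted p = 0.00391). Ctsk, the bone-resorbing cathepsin of osteoclasts, rose 2.42-fold with the laser (adjusted p = 0.000530) and was 2.39-fold higher than in bur bone (adjusted p = 0.000709), and Mmp2 rose 2.04-fold with the laser (adjusted p = 0.0270).

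Of 8 fibroblast and periosteal markers, all kept, 3 rose and 5 were not called with the bur, and 4 rose and 4 were not called with the laser, where 12.4% and 17.5% of all genes were called higher. Postn, a matrix protein of periosteum and wounds, rose 5.05-fold and 4.58-fold (adjusted p = 0.0175 and 0.0146). Of 6 macrophage markers, 5 rose with the bur and 4 with the laser. Of 8 osteoblast markers, 1 rose with the bur and 4 with the laser, among them Alpl, the bone alkaline phosphatase, which rose 2.79-fold with the laser (adjusted p = 0.00312). Of 8 endothelial markers, 0 rose and 1 fell with the bur, and 2 rose and 1 fell with the laser. Over all genes 9.11% were called lower with the bur and 15.5% with the laser. The endothelial counts are too small to set these markers apart from all genes. The tendon regulator Mkx was well above background on 3 control, 0 bur and 4 laser arrays and had a log2 fold change of 6.12 for laser against control (adjusted p = 6.87e-08). Scx, the other kept tendon marker, was called higher in that comparison too, and the 2 went opposite ways with the bur. The part of these cell types in the collagen results was not tested.

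Without control 1 and control 4, the arrays with the high neural signal, 1 collagen gene was called higher and 2 lower with the bur, and 5 higher and 2 lower with the laser. The genes called without them were Col18a1, Col4a3 and Col19a1 for the bur. For the laser they were Col1a2, Col3a1, Col8a1, Col6a3, Col18a1, Col9a2 and Col4a3. Only 2 control arrays were left in that fit, and the calls over all 27194 probes fell too. With the bur they went from 3327 to 1562 higher and from 2129 to 1697 lower, and with the laser from 5082 to 3380 higher and from 3764 to 3658 lower.

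Several collagen genes lie side by side in the GRCr8 assembly. Col4a2 and Col4a1 start head to head on chromosome 16 with 76 bases between their RefSeq starts. That stretch, at chr16:84885521-84885596 on the strand of Col4a1, holds 1 GC box, GGGCGG or its reverse complement CCGCCC, in capitals.
Col4a2 to Col4a1: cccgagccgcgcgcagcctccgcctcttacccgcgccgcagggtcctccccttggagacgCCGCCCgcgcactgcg
On either strand this motif is in 33.1% of all 33469 RefSeq promoter windows and in 18 of the 35 collagen genes with one, 51.4%. Col4a1 and Col4a2 had close values, 0.66 and 0.68 for the bur and 0.56 and 0.76 for the laser. Col3a1 and Col5a2 lie 38189 bases apart on chromosome 9, and their values with the bur were 1.93 and 0.74. Col6a1 and Col6a2 lie 97070 bases apart on chromosome 20, with 1.3 and 1.0. Col6a6, Col6a5 and Col6a4 follow each other on chromosome 8. Col6a4 did not pass the filter and was not tested, while Col6a5 was called with the laser and Col6a6 in no comparison.

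The promoter of Col1a2, called higher in laser than in both bur and control bone, is shown from 250 to 151 bases before its RefSeq start, at chr4:33518307-33518406 of GRCr8. Capitals mark ATTGG, the reverse complement of CCAAT, and TATAAA, the letters of a CCAAT box and a TATA box.
Col1a2: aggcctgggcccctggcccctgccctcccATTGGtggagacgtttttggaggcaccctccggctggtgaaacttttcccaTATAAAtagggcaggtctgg
On either strand CCAAT is in 37.5% of all promoter windows and in 11 of the 35 collagen genes with one, 31.4%, and TATAAA, with TTTATA as its reverse complement, is in 14.2% and in 4, 11.4%. The 4 are Col1a2, Col10a1, Col13a1 and Col17a1.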

How the data were processed

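The members and gene lists were chosen with earlier results of these data known. RNA was labelled from 200 ng of total RNA, per the labels' protocols. Per the file headers, the scanner files give each spot's intensity after background subtraction. The submitters' processing notes name Agilent Feature Extraction 11.0.1.1. A deposited table of quantile-normalised log2 values came from the authors, and the authors' deposited comparisons hold log2 fold changes and adjusted p-values.

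Processed signals were taken to log2 and quantile normalised, without control and outlier spots, and spots of a probe were averaged. Probes well above background on at least 4 of 12 arrays were kept. All 12 arrays entered 1 fit in limma 3.58.1 under R 4.3.3 (lmFit, contrasts, eBayes), with Benjamini-Hochberg adjustment over 27194 probes and a threshold of 0.05. It was tested on simulated data. A gene was read by its brightest kept probe. Array values are printed for up to 8 highest and 8 lowest called genes per comparison, for types I, III and IV, and for genes whose kept probes differ in sign or call. The labels do not say that samples came from separate animals, so p-values measure only the spread between samples. Replicate arrays correlated at 0.949 to 0.989 across probes, and their number limits the precision. Probe positions are in rn4 per the file headers. Deviations of same-numbered arrays from their group means correlated at -0.0727 to 0.290, and numbers were not taken as pairs. Arrays of different number were not set beside them, so this does not show whether the numbers mark pairs. Alternatives were 75th percentile scaling, normexp with an offset of 50, other filters, the mean of a gene's probes, 1 probe per gene in the fit, only the groups compared, array weights, the authors' values, a replicate block, and arrays left out.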

Additional observations from a re-analysis of the deposited data

Results flagged for a closer look

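In a group of 4 arrays, a value was marked where its gap to the nearest other value exceeded Dixon's 95% critical share of the group's range, which chance gives in about 1 of 20 groups. Of 108 groups checked for the 36 genes, 4 were marked. Col8a2 read 0.68 on control array 1 against 3.86 to 4.11 on the other control arrays. Col7a1 read 4.63 on control array 3 against 3.48 to 3.62. Col8a1 read 6.22 on bur array 1 against 5.57 to 5.67, and Col4a3 read 2.60 on bur array 4 against 1.02 to 1.13. The probe A_44_P1163035, named LOC102556297 and described in the file as a collagen alpha-1(I) chain-like transcript, lay outside the naming rule. It was well above background on the 4 laser arrays and on no other, so it passed the filter on dim probes through those arrays alone. Its fitted log2 difference for laser against control was 1.12 (limma adjusted p = 0.0360). With control arrays at the floor described for Col2a1, the group mean was 1.32-fold higher on laser arrays.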

How the results depend on the processing

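All genes called in the report kept their sign under every alternative run, 10 of 10 for bur against control, 17 of 17 for laser against control and 4 of 4 for laser against bur. Of these, 5, 9 and 2 kept their call with each array left out in turn, and 1, 6 and 3 under all other alternatives. For bur against control, 8 genes called higher became 5 with only the 2 groups in the fit, 5 with array weights and 1 without control 1 and control 4, with 4 to 10 when 1 array was left out. The 2 called lower became 0 with array weights and 1 with the authors' deposited values, with 1 to 3 when 1 array was left out. For laser against control, 13 called higher became 5 without control 1 and control 4, with 9 to 16 when 1 array was left out, and 4 called lower became 2 with normexp, 2 with the authors' values and 2 without control 1 and control 4, with 1 to 4 when 1 array was left out. For laser against bur, 3 called higher became 6 with 75th percentile scaling, 6 with only the 2 groups, 6 with array weights, 5 with normexp and 5 with the mean of a gene's probes, with 2 to 3 when 1 array was left out. The 1 called lower became 0 with 75th percentile scaling, no filter on dim probes, the filter on all 12 arrays, 1 probe per gene and the mean of a gene's probes, with 0 to 1 when 1 array was left out. The authors' values cover 33 of the 36 genes. The cause of these changes was not tested. Values that changed sign were all uncalled. The Col1a1 log2 fold change, bur against control, was -0.22 with 75th percentile scaling, -0.084 with the mean of its probes, and -0.13 to 0.15 with 1 array left out. The Col1a2 log2 fold change, bur against control, was 0.050 with array weights and -0.23 to 0.10 with 1 array left out. The Col4a6 log2 fold change, bur against control, was -0.014 with normexp, -0.83 with the mean of its probes and -0.062 with the authors' values. The Col4a2 log2 fold change, laser against bur, was -0.035 with normexp, -0.045 with array weights, -0.030 with the authors' values and -0.10 to 0.21 with 1 array left out. The Col4a3 log2 fold change, laser against bur, was -0.015 with normexp, and the Col3a1 log2 fold change, laser against bur, was -0.35 to 0.25 with 1 array left out.

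Same-numbered arrays correlated at -0.0727 to 0.290 in their deviations from the group means. The numbers were not taken as pairs, and these values do not show whether they mark pairs. With the replicate number as a block, 10 genes were higher and 3 lower for bur against control, 17 and 3 for laser against control and 5 and 1 for laser against bur. Under it Col4a1 (adjusted p = 0.0222) and Col4a2 (adjusted p = 0.0337) were called for laser against control and Col19a1 was not (adjusted p = 0.0576).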

Other observations

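Besides the named genes, 10 probes carried a description of a collagen chain under another name, and 6 of them were kept. None was called for bur against control. The probe A_42_P706317, described as a collagen alpha-3(IV) chain-like transcript, was well above background on 1 control, 0 bur and 4 laser arrays. Without the laser arrays it would not have passed the filter on dim probes. Its fitted value for laser against bur was 1.55 (limma adjusted p = 0.0379). With bur arrays at the floor described for Col2a1, the probe was 1.42-fold higher on laser arrays. For laser against control it had 0.54 (adjusted p = 0.435), while the Col4a3 probe fell in that comparison. Probes described as chains of types IV (alpha 4) and XXIV had values of -0.15 to 0.39 against control and were not called. The Col24a1 probe of the naming rule, at 2.08 for laser against control, was called, and the other type XXIV probe, at 0.39 (adjusted p = 0.716), was not. The probe A_44_P1092316, described as a collagen alpha-1(XXV) chain-like transcript, had 0.89 for laser against control (adjusted p = 0.165).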
